A study of Mus musculus with 12 samples.

Results

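MHC class II molecules display peptides from endosomes to CD4+ T cells, and B cells are among the cells that carry them constitutively. An alpha and a beta chain assemble in the endoplasmic reticulum around the invariant chain, encoded by Cd74. In endosomes the invariant chain is cut down to a short remnant in the groove, H2-DM exchanges that remnant for a peptide, and H2-DO, which is made mainly by B cells, holds H2-DM back. Most of these genes are switched on together by Ciita, a coactivator that does not bind DNA itself and is recruited to a complex of RFX, CREB and NF-Y factors at paired promoter motifs called the X box and the Y box.

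The 10 genes described here are the class II chain genes H2-Aa, H2-Ab1, H2-Eb1 and H2-Eb2, the invariant chain gene Cd74, the H2-DM genes H2-DMa and H2-DMb2, the H2-DO genes H2-Oa and H2-Ob, and Ciita. They were taken by mouse symbol from 56748 gene IDs in the count files, and all 10 were among the 13535 genes with enough reads to be tested. The libraries came from Eµ-myc lymphoma cells, a B cell lymphoma line in which the Myc oncogene is driven by the immunoglobulin heavy chain enhancer. Lymphatic libraries (n = 4) held lymphoma cells sorted from lymph nodes on day 11 after injection, having spread through lymphatic vessels. Hematogenous libraries (n = 4) held lymphoma cells sorted from lymph nodes on day 18, having spread through blood. Culture libraries (n = 4) held the same line without passage through an animal, as their titles say, although their tissue label also reads lymph node. The hosts were C57BL/6J mice, and the line, which all 3 groups share, is the only tumour model. Lymphatic libraries differ from hematogenous ones in route and in day at once, and the effects of route and day cannot be told apart. The sort gate is not given in the sources used here, nor whether libraries of a group came from separate mice or cultures, so p-values measure the spread between these libraries.

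Assigned counts ran from 5286775 to 25302016 per library. All 9 listed B cell marker genes were detected in each group, and their summed level was 5719 to 6689 CPM (read counts scaled to library size) in the lymphatic libraries, 7226 to 7801 CPM in the hematogenous libraries and 5616 to 5960 CPM in culture. Ighm was the largest part of each sum, and single genes differed. Against culture, 3 were called higher and 2 lower in lymphatic libraries (13.4% and 13.0% of all tested genes). In hematogenous libraries 6 were called higher than in culture and 0 lower (13.9% and 13.9%). Between lymphatic and hematogenous libraries 1 was higher and 4 were lower (11.4% and 10.9%). Genes of other host cells also differed between groups. The summed level of 11 T cell genes was 21.1 to 90.5 CPM in lymphatic libraries, 6.02 to 16.3 CPM in hematogenous libraries and 0 to 0.807 CPM in culture. The 11 genes of a macrophage list summed to 28.0 to 71.1 CPM in lymphatic libraries and 19.4 to 26.9 CPM in hematogenous libraries. Their sum was 14.8 to 19.9 CPM in culture, where 5 of them, Lyz2 included, were at 0. Csf1r and Itgam of this list were instead highest in culture, at 7.49 to 11.1 and 3.30 to 6.11 CPM. They stood at 2.98 to 4.71 and 0.203 to 1.18 CPM in lymphatic libraries, and at 0.570 to 2.45 and 0.642 to 1.14 CPM in hematogenous ones. Set against culture, each lymph node group had 3 macrophage genes called higher and 2 called lower. A list of 10 genes of mature host B cells summed to 750 to 913 CPM in lymphatic libraries and 1265 to 1508 CPM in hematogenous libraries, against 511 to 602 CPM in culture. Ighd, a large part of that sum in the hematogenous libraries, was also carried by the cultured line. Fcer2a was at 4.67 to 11.4 CPM in lymphatic libraries and 1.90 to 6.48 CPM in hematogenous libraries, against 0.0778 to 0.231 CPM in culture. The share of immunoglobulin heavy chain variable counts outside Ighv3-6, the leading segment, was 1.17 to 5.17% in the lymphatic libraries and 0.284 to 1.75% in the hematogenous libraries, against 0 to 0.0658% in culture. The 10 dendritic cell genes, mostly Ccr7, summed to 51.3 to 90.4 CPM in lymphatic and 53.2 to 57.6 CPM in hematogenous libraries. Their sum was 136 to 161 CPM in culture, where Ccr7 and Zbtb46 were highest. Itgax was instead at 0 in culture, against 0.203 to 0.552 CPM in lymphatic and 0.241 to 0.570 CPM in hematogenous libraries. Fscn1 was at 0 to 0.1075 CPM in culture, against 0.474 to 3.54 CPM in lymphatic and 0.253 to 0.783 CPM in hematogenous libraries. Clec9a and Cd209a were at or under 0.1994 CPM in each library. The T cell and macrophage sums were thus higher in the lymphatic libraries, the mature B cell sum was higher in the hematogenous libraries, and the ranges of Fcer2a overlapped. The part of host cells in the class II levels was not tested. One library, lymphatic 4, stood apart, with 16.0% of its counts in ribosomal protein genes against 7.6 to 9.86% in the others and the highest T cell sum, so its values are named where they matter.

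Class II promoters are known for a shared layout, so promoter stretches of the genes are shown first, each aligned on the Y box core. They are from RefSeq on GRCm38.p6, read 5′ to 3′ on the strand of the gene, and 7 of the 10 genes matched an entry. Capitals mark the Y core ATTGG and, upstream of it, an X box core. H2-Eb1 and H2-DMb2 were among the genes with the largest differences from culture, whereas H2-Eb2 and H2-Ob differed least. The X core marked in all 4 was read from these same promoters, upstream of ATTGG. That all 4 hold both cores was therefore set by the choice and is not a result.
H2-Eb1, chr17:34305762-34305826, plus strand: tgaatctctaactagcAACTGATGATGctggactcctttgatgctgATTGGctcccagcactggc
H2-Eb2, chr17:34325529-34325593, plus strand: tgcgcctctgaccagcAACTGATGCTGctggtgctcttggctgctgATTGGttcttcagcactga
H2-DMb2, chr17:34145113-34145177, plus strand: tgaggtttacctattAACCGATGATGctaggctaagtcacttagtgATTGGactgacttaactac
H2-Ob, chr17:34238802-34238866, plus strand: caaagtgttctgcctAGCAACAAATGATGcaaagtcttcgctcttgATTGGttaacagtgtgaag

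The X core AACNNATGNTG, which is the stretch most alike in these 4 promoters and so was read from them, stood 19 bases before ATTGG in H2-Eb1 and H2-Eb2, 20 bases before it in H2-DMb2 and 17 bases before it in H2-Ob. In H2-Ob the capitals also cover an overlapping general X box core, set from textbook knowledge. Searched on both strands of 32851 promoter windows of 300 bases, ATTGG was in 37.4%, the general X box core in 5.31% and AACNNATGNTG in 0.566%. The pair of AACNNATGNTG and ATTGG within 40 bases was in 9 windows, or 0.0274%, and 5 of those were the 4 genes above and H2-DMb1, the near-identical neighbour of H2-DMb2. The core was read from the 4 genes, so this count cannot show that the pair is particular to class II genes. The general X box core followed by ATTGG within 40 bases was in 54 windows, or 0.164%. Of the matched class II genes, only H2-Ob held that pair.
H2-Aa and H2-Oa held the Y core, marked in capitals below, and the exact letters AACNNATGNTG were not in their windows. The general X box core was in the windows of H2-Oa and H2-Ob. H2-DMa had 2 windows, and neither X core was in either of them; 1 of these windows held ATTGG, 198 bases before the start.
H2-Aa, chr17:34287853-34287917, minus strand: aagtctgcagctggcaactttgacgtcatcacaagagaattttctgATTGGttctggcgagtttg
H2-Oa, chr17:34092290-34092354, plus strand: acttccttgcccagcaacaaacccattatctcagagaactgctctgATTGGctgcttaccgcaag
These matches describe letters only.

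The classical class II chains were far higher in both lymph node groups than in culture. H2-Aa (ENSMUSG00000036594.16), the alpha chain of H2-A, was at 154.5, 144, 222 and 315 CPM in lymphatic libraries and at 677, 713, 738 and 620.5 CPM in hematogenous libraries, against 18.8, 13.7, 14.6 and 16.4 CPM in culture. The 3 groups did not overlap, with hematogenous libraries highest and culture lowest. H2-Aa was 3.71 ± 0.233 log2 units higher in lymphatic than in culture libraries (edgeR quasi-likelihood test, adjusted p = 1.26e-07; each ± on a log2 change is a standard error) and 5.43 ± 0.250 higher in hematogenous than in culture libraries (adjusted p = 4.69e-09). The change between lymphatic and hematogenous libraries was -1.72 ± 0.209 log2 units (adjusted p = 1.23e-04). Both lymph node groups were set against the same culture libraries, so the first pair of values is not independent. In bulk libraries, fewer cells that carry class II and less class II RNA in each cell cannot be told apart.

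H2-Ab1 (ENSMUSG00000073421.7), the partner beta chain, averaged 141 ± 73.8 CPM in lymphatic and 439 ± 67.4 CPM in hematogenous libraries, against 17.4 ± 4.07 CPM in culture (SD, n = 4 each). H2-Eb1 (ENSMUSG00000060586.12), the beta chain of H2-E, was at 91.3, 80.8, 154 and 217 CPM in lymphatic and at 450.2, 508, 502 and 415 CPM in hematogenous libraries, against 6.25 to 8.95 CPM in culture. For both genes the groups were fully separated and in the same order as for H2-Aa. H2-Eb1 showed the largest change of the list between lymphatic and culture libraries, at 4.12 ± 0.293 log2 units (adjusted p = 3.48e-07), and 5.91 ± 0.313 between hematogenous and culture libraries (adjusted p = 1.54e-08). H2-Ab1 differed by 3.00 ± 0.332 and 4.64 ± 0.354 log2 units in the same comparisons (adjusted p = 1.86e-05 and 3.56e-07). H2-Eb1 usually pairs with the E alpha chain, whose gene is defective in C57BL/6J mice, and the ID named H2-Ea-ps had 2 counts over the lymphatic, 6 over the hematogenous and 0 over the culture libraries.

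H2-Eb2 (ENSMUSG00000067341.7), a second E beta chain gene next to H2-Eb1, did not follow the other chains. It was at 14.5, 11.1, 17.3 and 14.3 CPM in lymphatic libraries and at 48.4, 33.3, 44.0 and 63.3 CPM in hematogenous libraries, against 23.3, 20.7, 23.1 and 23.3 CPM in culture. All lymphatic libraries were below all culture libraries, and all hematogenous libraries were above them. The change was -0.67 ± 0.185 log2 units between lymphatic and culture libraries (adjusted p = 0.0167) and 1.06 ± 0.184 between hematogenous and culture libraries (adjusted p = 6.13e-04). H2-Eb2 was lower in lymphatic than in hematogenous libraries, with a change of -1.72 ± 0.186 log2 units (adjusted p = 5.94e-05), the same size as that of H2-Aa.

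**Figure D1:**
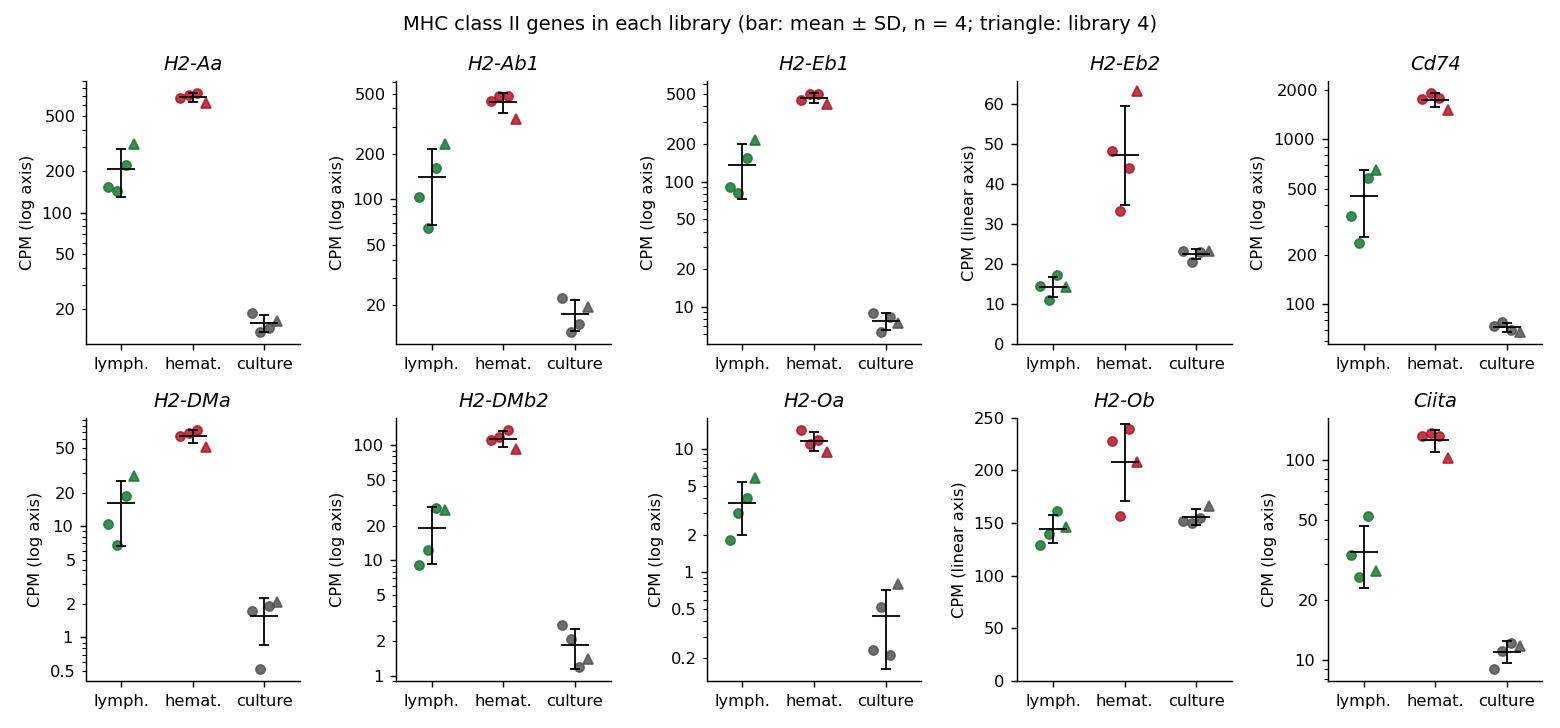
Level of each of the 10 class II genes in each of the 12 libraries, in CPM; axes are logarithmic except for H2-Eb2 and H2-Ob, which are linear from 0. Points are libraries, triangles are library 4 of each group, and bars are the mean ± SD of 4 libraries; H2-Aa and the other genes except H2-Eb2 and H2-Ob have their hematogenous libraries highest and their culture libraries lowest with no overlap, whereas H2-Eb2 has its lymphatic libraries lowest and the groups overlap for H2-Ob.

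Cd74 (ENSMUSG00000024610.16), the invariant chain, was at 345, 234, 581 and 651 CPM in lymphatic libraries and at 1749, 1908, 1782 and 1498 CPM in hematogenous libraries, against 74.0, 78.7, 70.0 and 67.8 CPM in culture. The groups were again fully separated, and the lymphatic libraries spread the most. Cd74 differed by 2.64 ± 0.258 log2 units between lymphatic and culture libraries (adjusted p = 6.18e-06) and by 4.58 ± 0.281 between hematogenous and culture libraries (adjusted p = 5.66e-08). The difference between lymphatic and hematogenous libraries was -1.94 ± 0.249 (adjusted p = 1.69e-04).

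The H2-DM genes, which encode the peptide exchange factor, were close to absent in culture. H2-DMa (ENSMUSG00000037649.11) averaged 16.1 ± 9.52 CPM in lymphatic and 64.5 ± 8.99 CPM in hematogenous libraries, against 1.56 ± 0.709 CPM in culture (SD, n = 4 each). H2-DMb2 (ENSMUSG00000037548.16) was at 9.20, 12.4, 28.2 and 27.2 CPM in lymphatic libraries and at 111, 117, 136.5 and 92.9 CPM in hematogenous libraries, against 2.72, 2.09, 1.18 and 1.38 CPM in culture. No library of one group reached another group for either gene. H2-DMb2 had the largest change of the list between hematogenous and culture libraries, at 5.92 ± 0.408 log2 units (adjusted p = 1.39e-07), and the largest between the lymph node groups, at -2.58 ± 0.321 (adjusted p = 1.41e-04). Between lymphatic and culture libraries H2-DMb2 differed by 3.35 ± 0.393 and H2-DMa by 3.28 ± 0.438 log2 units (adjusted p = 3.11e-05 and 9.23e-05). H2-DMb2 has a near-identical copy, H2-DMb1, at 13.9 to 36.2 CPM in lymphatic libraries and 49.9 to 58.9 CPM in hematogenous libraries, against 1.83 to 5.21 CPM in culture. Reads may be divided between the copies, so each copy's level is uncertain. H2-DMa shares 10.4% of its exon bases with Brd2 on the opposite strand.

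The chains of H2-DO, the inhibitor of H2-DM, were unlike each other. H2-Oa (ENSMUSG00000024334.10), the alpha chain, was at 1.83, 3.03, 4.02 and 5.79 CPM in lymphatic libraries and at 14.3, 10.9, 11.8 and 9.50 CPM in hematogenous libraries, against 0.233, 0.521, 0.215 and 0.807 CPM in culture. The groups were separated, at levels that were low throughout. H2-Oa differed by 3.10 ± 0.449 log2 units between lymphatic and culture libraries and by 4.77 ± 0.437 between hematogenous and culture libraries (adjusted p = 1.85e-04 and 1.95e-06). H2-Oa shares 22.8% of its exon bases with the antisense gene BC051537. H2-Ob (ENSMUSG00000041538.17), the beta chain, was at 129, 140, 161 and 147 CPM in lymphatic libraries and at 228, 157, 239 and 208 CPM in hematogenous libraries, against 152, 149.9, 154.5 and 166 CPM in culture. The groups overlapped in each pairing. The change of H2-Ob was -0.11 ± 0.128 log2 units between lymphatic and culture libraries, which did not pass the test (adjusted p = 0.566), and 0.42 ± 0.128 between hematogenous and culture libraries, which did (adjusted p = 0.0251). The second call was lost when any one of culture 1, 2 or 3 or of hematogenous 1, 3 or 4 was left out (adjusted p = 0.0528 to 0.0906). H2-Ob was also lower in lymphatic than in hematogenous libraries, at -0.53 ± 0.128 (adjusted p = 0.00966), and this call was lost when these groups were fitted alone (adjusted p = 0.0522).

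Ciita (ENSMUSG00000022504.11), the coactivator, was at 33.4, 25.9, 52.2 and 27.9 CPM in lymphatic libraries and at 132, 137, 131 and 102 CPM in hematogenous libraries, against 9.02, 11.1, 12.2 and 11.8 CPM in culture. It separated all 3 groups in the order seen for H2-Aa and Cd74. Ciita differed by 1.66 ± 0.211 log2 units between lymphatic and culture libraries (adjusted p = 6.14e-05) and by 3.52 ± 0.221 between hematogenous and culture libraries (adjusted p = 6.56e-08). It was lower in lymphatic than in hematogenous libraries, at -1.85 ± 0.201 (adjusted p = 6.00e-05). Lymphatic 4 had the highest H2-Aa, H2-Ab1, H2-Eb1 and Cd74 of its group together with the next to lowest Ciita. Of its group, it also had the highest T cell and macrophage sums, at 90.5 and 71.1 CPM, and the lowest mature B cell sum, at 750 CPM. Its dendritic cell sum was highest too, at 90.4 CPM, but 73.8 CPM of that was Ccr7, which was at 122 to 145 CPM in culture. Plasma cell and NK cell lists also summed highest in lymphatic 4, at 148 and 7.65 CPM, and a stromal and endothelial list lowest, at 80.45 CPM. The part of host cells in the class II levels of lymphatic 4 was not tested.

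Counted over the list, 8 of 10 genes were higher and 1, H2-Eb2, was lower in lymphatic than in culture libraries, where 13.4% of all tested genes were higher and 13.0% lower (26.4% in either direction). All 10 were higher in hematogenous than in culture libraries, where 13.9% of tested genes were called higher (27.8% in either direction). All 10 were lower in lymphatic than in hematogenous libraries, where 10.9% of tested genes were called lower (22.3% in either direction). The median log2 change of the list was 3.05, 4.71 and -1.75 in these 3 comparisons, beside 0.0385, -0.000748 and 0.0322 over all tested genes. Groups did not overlap for 8 higher genes and 1 lower gene of the list in the first comparison (14.6% higher and 15.5% lower over all tested genes), for 9 higher genes in the second (21.8%) and for 9 lower genes in the third (13.1%). H2-DMb2 and H2-Eb1 held ranks 56 and 57 of the 13535 genes by change between hematogenous and culture libraries.

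**Figure D2:**
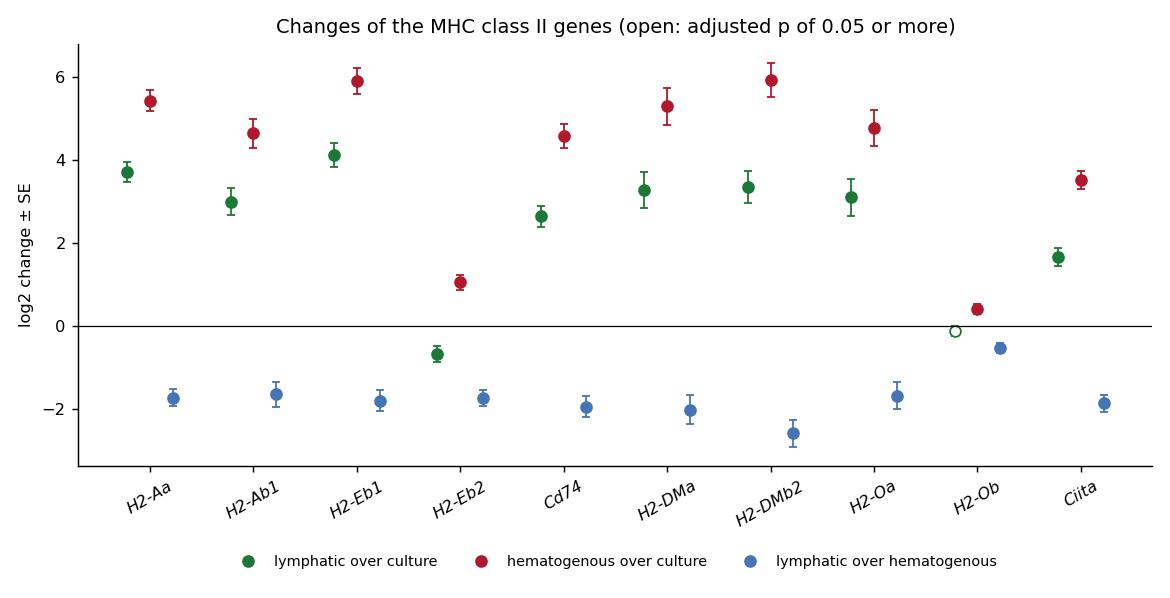
log2 change of each of the 10 class II genes in the 3 comparisons, with points for the change and bars for its standard error. The genes other than H2-Eb2 and H2-Ob sit between 1.66 and 4.12 for lymphatic over culture libraries, and between 3.52 and 5.92 for hematogenous over culture libraries.

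Set side by side as CPM per kilobase of exon, the genes stood in another order in the lymph node groups than in culture. The length of a gene counted each base that lies in any of its annotated exons, not the length of 1 transcript. Levels set between genes therefore depend on the annotation. Cd74 led each group, at 270 in lymphatic and 1033 in hematogenous libraries, against 43.2 CPM per kilobase in culture. In lymphatic libraries H2-Eb1 at 69.9, H2-Aa at 55.0, H2-Ab1 at 54.9 and H2-Ob at 26.8 overlapped from one to the next, H2-DMb2 at 11.0 was below H2-Ob in each library, and H2-DMa at 4.66, H2-Eb2 at 4.22, Ciita at 3.65 and H2-Oa at 2.61 overlapped. In hematogenous libraries Cd74 was followed by H2-Eb1 at 241, H2-Aa at 181 and H2-Ab1 at 171, with the H2-A chains overlapping, and by H2-DMb2 at 65.4, above H2-Ob at 38.6 CPM per kilobase. H2-DMa at 18.7 overlapped H2-Eb2 at 13.9, H2-Eb2 overlapped Ciita at 13.2, and H2-Oa was lowest at 8.27. In culture Cd74 was followed by H2-Ob at 28.9, then by H2-Ab1 at 6.79 and H2-Eb2 at 6.66, whose library values overlapped, then by H2-Aa at 4.18 and H2-Eb1 at 3.97, which also overlapped. Ciita at 1.16 and H2-DMb2 at 1.06 overlapped, as did H2-DMa at 0.453 and H2-Oa at 0.316 CPM per kilobase. By group mean, H2-Ob thus stood next after Cd74 in culture, at 28.9 CPM per kilobase. It stood behind at least 4 genes in each lymph node group, at 26.8 to 38.6 CPM per kilobase. Single lymphatic libraries did not all keep this order, as H2-Ob ran from 24.0 to 29.9 and H2-Ab1 from 25.2 CPM per kilobase.

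Ratios within a library, which cancel its depth, showed which components differed in proportion. Their size, and the side of 1 on which they fell, depend on the exon lengths used. For a ratio of 1 gene to another, the comparison between groups does not. The ratio of H2-DMa and H2-DMb2 to H2-Oa and H2-Ob, each pair summed in CPM per kilobase, was 0.329, 0.322, 0.659 and 0.756 in lymphatic and 1.56, 2.36, 1.88 and 1.50 in hematogenous libraries, against 0.0723, 0.0476, 0.0429 and 0.0442 in culture. The ratio was above 1 in each hematogenous library and below 1 in each lymphatic and culture library. With the copy H2-DMb1 added to the H2-DM sum, a choice made after seeing the data, the ratio was 0.787, 0.616, 1.21 and 1.44 in lymphatic and 2.13, 3.23, 2.54 and 2.23 in hematogenous libraries, against 0.160, 0.157, 0.0805 and 0.125 in culture. The order of the groups held with either sum, whereas the side of 1 on which lymphatic 3 and lymphatic 4 fell did not. H2-Ob was the larger part of the H2-DO sum: the ratio of H2-Ob to H2-Oa averaged 11.9 ± 4.95 in lymphatic and 4.73 ± 0.925 in hematogenous libraries, against 122 ± 67.1 in culture (SD, n = 4 each). The ratio of Cd74 to the 3 chains H2-Aa, H2-Ab1 and H2-Eb1 ranged from 1.33 to 1.72 among lymphatic libraries and from 1.66 to 1.78 among hematogenous libraries, against 2.42 to 3.92 in culture, so each lymph node library had more chain RNA for its Cd74 RNA than each culture library. H2-Aa and H2-Ab1, which pair in one molecule, stood at a ratio of 1.09 ± 0.284 in lymphatic and 1.07 ± 0.107 in hematogenous libraries, against 0.626 ± 0.0646 in culture. The ratio of the 3 chains to Ciita was 36.6, 38.6, 36.7 and 97.8 in lymphatic and 42.2, 44.5, 46.6 and 47.9 in hematogenous libraries, against 19.2, 10.3, 11.0 and 12.7 in culture. Lymphatic 1, 2 and 3 were below all hematogenous libraries and lymphatic 4 was above them, and all lymph node libraries were above all culture libraries. No test was made on these ratios.

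**Figure D3:**
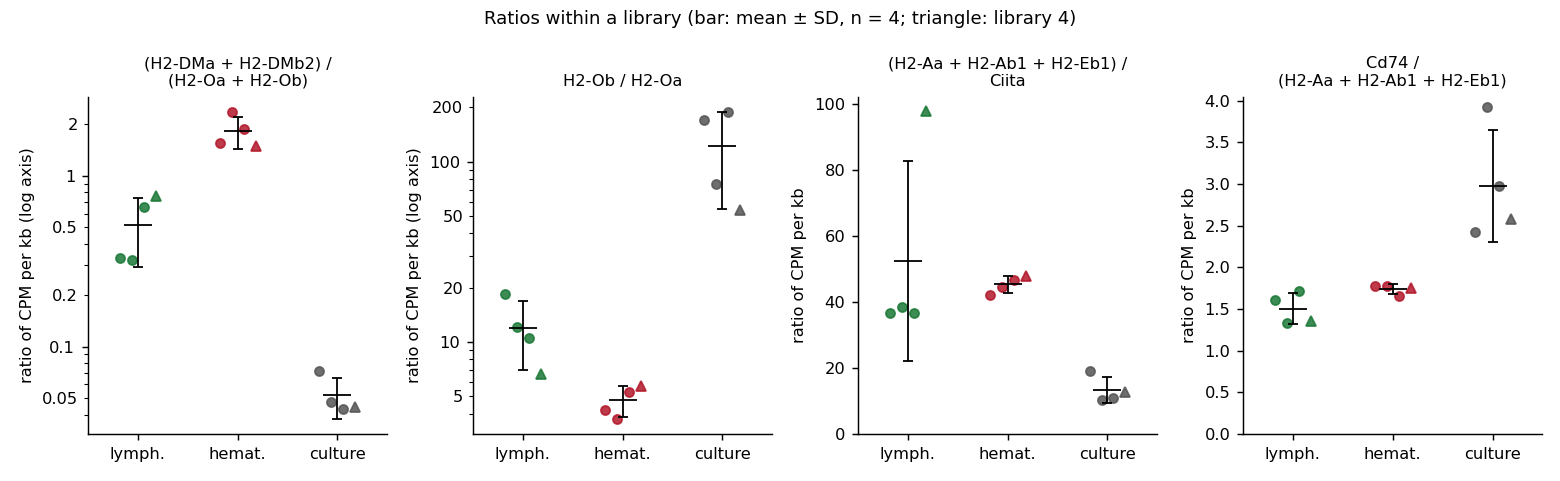
Ratios within each library, each computed from CPM per kilobase of exon; the panels of H2-DM to H2-DO and of H2-Ob to H2-Oa have logarithmic axes and the others start at 0. Points are libraries and bars are the mean ± SD of 4; the ratio of H2-DMa and H2-DMb2, without H2-DMb1, to the H2-DO chains is between 1.50 and 2.36 in the 4 hematogenous libraries and at or under 0.756 in all others.

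Along chromosome 17, 8 of the 10 genes lie in one region, in the order H2-Oa, H2-DMa, H2-DMb2, H2-Ob, H2-Ab1, H2-Aa, H2-Eb1 and H2-Eb2, with 6 other protein-coding genes among them. Cd74 is on chromosome 18 and Ciita on chromosome 16. Both genes with the smallest changes over culture, H2-Ob and H2-Eb2, have a class II neighbour that rose: among protein-coding genes, H2-Ob is next to H2-Ab1, and H2-Eb2 is next to H2-Eb1. Of the 6 other genes, which include H2-DMb1, the copy of H2-DMb2, 4 were higher in lymphatic than in culture libraries (13.4% of all tested genes). H2-DMb1 was at 2.71 and the class I processing genes Psmb9 at 1.32, Tap1 at 1.28 and Psmb8 at 0.93 log2 units. In hematogenous against culture libraries 5 of the 6 were higher (13.9% of all tested genes). H2-DMb1 was at 3.84, Psmb9 at 1.41, Tap1 at 1.40, Psmb8 at 1.20 and Brd2 at 0.25. Between lymphatic and hematogenous libraries only H2-DMb1 of these 6 passed the test, at -1.13 log2 units (22.3% of all tested genes passed). The median of the 6 was -0.22, beside -1.72 for the 8 class II genes of the list in the region. The proteasome and transporter genes of class I processing in the same region were thus called higher than culture in both lymph node groups, with Tap2 not called, and none of these genes passed the test between lymphatic and hematogenous libraries.

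**Figure D4:**
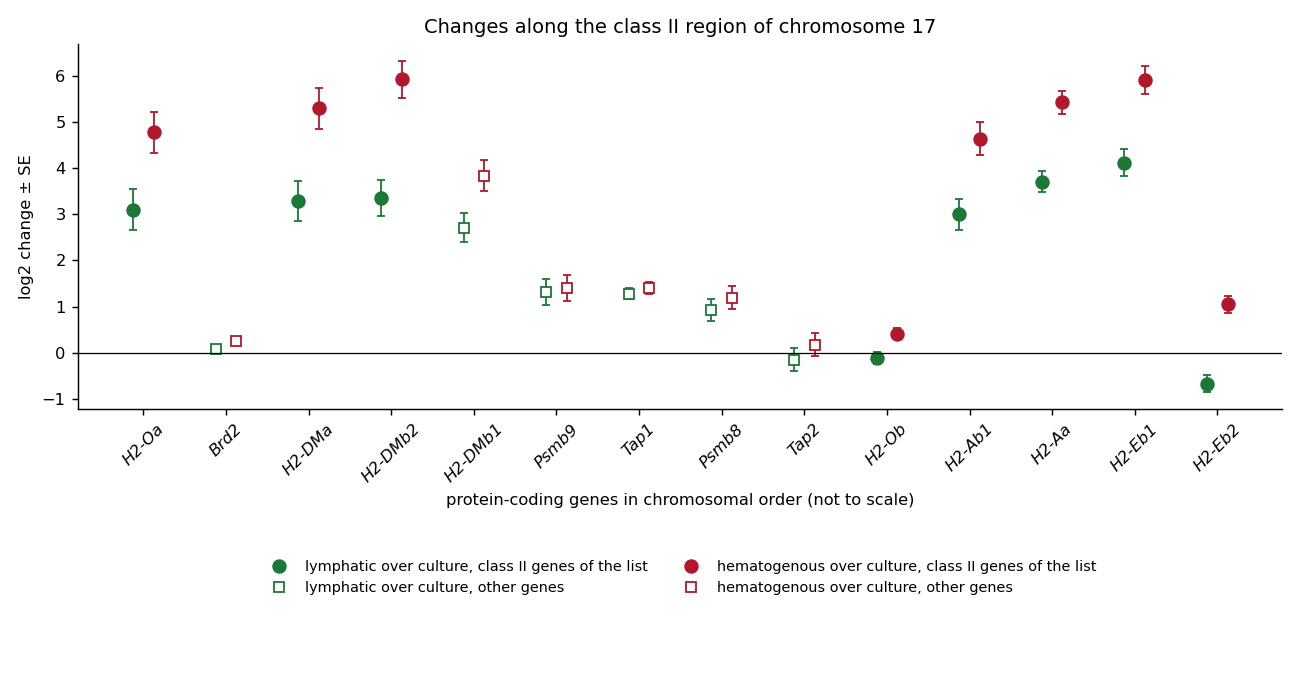
log2 change ± SE over culture for the 14 protein-coding genes of the class II region in chromosomal order, not to scale. Filled circles are class II genes of the list and open squares are other genes, with lymphatic libraries left of hematogenous ones; H2-Ob and H2-Eb2 lie between -0.67 and 1.06, and the other 6 class II genes of the region between 3.00 and 5.92.

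The rest of the pathway was read from 46 genes in 7 lists, of which 43 were tested. In lymphatic against culture libraries 12 were higher and 8 lower, in hematogenous against culture libraries 16 were higher and 7 lower, and in lymphatic against hematogenous libraries 5 were higher and 8 lower. Over all tested genes, 13.4% were higher and 13.0% lower in the first comparison, 13.9% and 13.9% in the second, and 11.4% and 10.9% in the third. Their median log2 changes were 0.15, 0.22 and -0.11, closer to 0 than those of the class II genes. Without lymphatic 4 the number lower was 13 in the first comparison and 14 in the third.

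Among 7 genes of the promoter-binding complex that Ciita is recruited to, only the NF-Y subunit gene Nfyb was higher, by 0.64 log2 units in lymphatic and 0.55 in hematogenous over culture libraries (adjusted p = 0.00226 and 0.00541). Rfx5, Rfxap, Rfxank, Nfyc and Creb1 passed no test, and Nfya was lower in lymphatic than in hematogenous libraries, at -0.39 (adjusted p = 0.0485). Each change that passed was smaller in size than that of Ciita in the same comparison, which was 1.66, 3.52 and -1.85 log2 units.

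Of 14 listed regulators of Ciita and interferon signalling genes, 13 were tested. In lymphatic against culture libraries 4 were higher and 5 lower (13.4% and 13.0% over all tested genes). In hematogenous against culture libraries 5 were higher and 2 lower (13.9% and 13.9%). In lymphatic against hematogenous libraries 2 were higher and 3 lower (11.4% and 10.9%). Irf1, an interferon-induced factor that acts at one Ciita promoter, was at 36.4, 52.6, 29.4 and 52.5 CPM in lymphatic libraries and at 19.3, 23.9, 18.6 and 18.8 CPM in hematogenous libraries, against 23.6 to 27.7 CPM in culture. Each lymphatic library was above each hematogenous one, the opposite order to Ciita. It was 0.74 log2 units higher in lymphatic than in culture libraries (adjusted p = 0.00752) and -0.34 in hematogenous over culture libraries, which did not pass (adjusted p = 0.193). Between lymphatic and hematogenous libraries Irf1 was higher by 1.09 log2 units (adjusted p = 9.90e-04).

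Irf8, a factor of the B cell and myeloid lineages, ran the other way. It was at 55.8, 42.0, 74.6 and 60.2 CPM in lymphatic and at 187.5, 128, 177 and 136 CPM in hematogenous libraries, against 102 to 110 CPM in culture. All lymphatic libraries were below and all hematogenous libraries above the culture libraries, the same order as for H2-Eb2. The changes were -0.86 ± 0.167 and 0.58 ± 0.165 log2 units against culture (adjusted p = 0.00172 and 0.0175), and -1.44 ± 0.168 between lymphatic and hematogenous libraries (adjusted p = 9.34e-05). Irf4, which B cells raise on activation, was 0.57 and 0.52 log2 units higher in lymphatic and hematogenous than in culture libraries, whereas Spi1, which encodes PU.1, was lower, at -0.88 and -0.76. Ezh2, which deposits a repressive histone mark, was higher by 0.31 and 0.53 in the same comparisons. Jak2, a kinase of the interferon gamma receptor, was lower, at -0.80 and -0.54. Nlrc5, the class I counterpart of Ciita, was higher in hematogenous than in culture libraries by 0.71 (adjusted p = 0.0309). Ifngr1, Ifngr2 and Usf1 passed no test. Because macrophages and T cells also express Irf1, the higher T cell and macrophage sums of the lymphatic libraries stand beside its values, and their part in them was not tested.

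**Figure D5:**
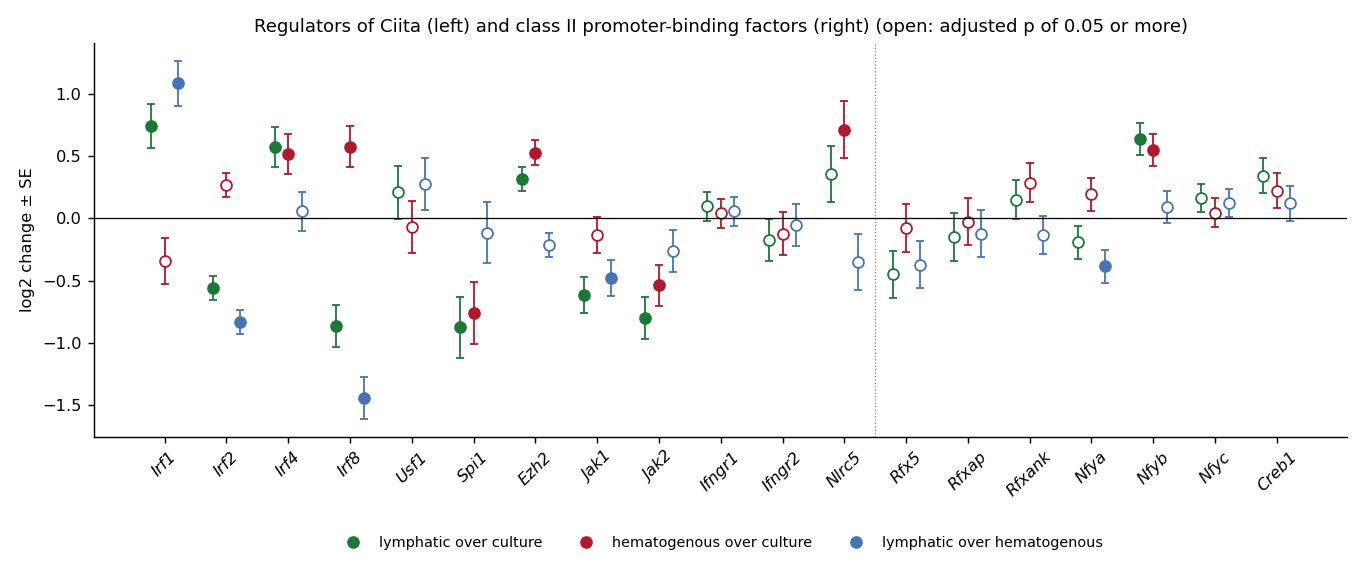
log2 change ± SE of 12 regulators of Ciita and interferon signalling genes (left of the dotted line) and of the 7 promoter-binding genes (right), in the 3 comparisons; open points did not pass the test. Between lymphatic and hematogenous libraries Irf1 lies at 1.09 and Irf8 at -1.44.

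Genes that act on class II proteins after synthesis moved in several directions. Ifi30, which reduces disulfide bonds of antigens in endosomes, was higher than in culture by 0.65 and 0.82 log2 units in lymphatic and hematogenous libraries (adjusted p = 0.0412 and 0.0118). Ctss, the cathepsin that trims the invariant chain in B cells, passed no test, nor did Sppl2a, which removes its last fragment. Ctsb was lower, at -0.51 and -0.73, and Lgmn, an asparagine endopeptidase, at -0.59 and -0.80. Ctsh was higher and Ctsl lower in hematogenous than in culture libraries, at 0.79 and -1.35 log2 units. March1, a ubiquitin ligase that sends class II to lysosomes, was at 3.52 to 5.46 CPM in lymphatic libraries and 6.23 to 16.3 CPM in hematogenous libraries, against 0.521 to 1.73 CPM in culture. Its changes were 2.36 and 3.80 log2 units over culture and -1.44 between lymphatic and hematogenous libraries, the same order as the class II chains. March8, a related ligase, was lower than in culture, at -0.57 and -1.10.

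Cd83, which protects class II from March1, had 199 counts over the lymphatic and 34 over the hematogenous libraries, against 0 in culture. Its mean level was at least 32.5-fold higher in lymphatic and at least 10.1-fold higher in hematogenous than in culture libraries, taking 3 counts over the culture group as the floor. Unlike the class II genes, Cd83 was higher in lymphatic than in hematogenous libraries, by 1.67 log2 units (adjusted p = 0.0278). Its levels were low, at 1.15, 3.07, 1.81 and 4.61 CPM in lymphatic and 0.489 to 1.04 CPM in hematogenous libraries. The highest was in lymphatic 4, and the part of host cells in these levels was not tested. Of the costimulatory genes, Cd86 was higher than in culture by 3.97 and 5.05 and Icosl by 2.84 and 3.93 log2 units, and Icosl was lower in lymphatic than in hematogenous libraries, at -1.08. Cd86 had 0, 0, 2 and 4 counts in the culture libraries, so the size of its changes over culture is uncertain. Its level was 1.08 to 3.51 CPM in lymphatic and 3.99 to 8.17 CPM in hematogenous libraries, and the part of host cells in it was not tested. Cd40 passed no test. Cd44, which signals with CD74 at the cell surface, was 0.78 and 0.62 log2 units higher in lymphatic and hematogenous than in culture libraries.

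The genes outside the list whose levels were most like those of 4 class II genes were ranked by Pearson correlation of log2 CPM over the 12 libraries, as a description: the libraries fall into 3 groups, so any gene in the same group order ranks high. Nearest to H2-Aa were Ms4a1, which encodes CD20 (r = 0.994), Alpl (0.990), Mir5107 (0.988), Pstpip1 (0.988) and Siglecg (0.987). Mir5107 lies within Cd74 on the same strand. Nearest to Cd74 were Tep1 (0.991), Myo1g (0.987), Vim (0.987), Parvg (0.986) and Haao (0.986), and nearest to Ciita were Gpd1l (0.992), Myo1g (0.990), Il17ra (0.987), Carmil2 (0.987) and Rassf5 (0.987). H2-Eb2 had other neighbours: Trib2 (0.979), Rcsd1 (0.971), Ighd, the IgD heavy chain (0.969), Snn (0.969) and Tnfrsf13c, the BAFF receptor (0.966). Ighd averaged 161 ± 18.4 CPM in lymphatic and 885 ± 86.5 CPM in hematogenous libraries, against 315 CPM in culture, which is the order of H2-Eb2. Ms4a1 averaged 17.2 ± 5.28 CPM in lymphatic and 78.8 ± 12.2 CPM in hematogenous libraries, against 0.788 CPM in culture, which is the order of H2-Aa.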

How the data were processed

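Poly(A) RNA was sequenced as stranded single-end reads, per the labels' protocols. The authors deposited raw read counts per gene and library; FastQC 0.11.9, Trimmomatic 0.39, HISAT2 2.1.0, HTSeq 2.0.2 and GRCm39 are named in the submitters' processing notes. The annotation and counting options are not given in the sources used here. The 5 summary lines (30.3 to 36.5% of reads) were left out; 91.8% of IDs matched a symbol.

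The test was edgeR 4.0.16 under R 4.3.3 (TMM, default expression filter, quasi-likelihood F test, 12 libraries, group as the only term, Benjamini-Hochberg over 13535 genes, threshold 0.05). Standard errors were derived from the F statistic. CPM used TMM library sizes. Exon lengths and overlaps came from GENCODE on GRCm38. No library was a copy of another (chi-square per degree of freedom at least 4.91). The script was tested on simulated data. Alternatives were limma 3.58.1, DESeq2 1.42.0, other filters and normalizations, fits of the groups compared alone, a replicate block and leaving out each library.

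The genes and lists were chosen with earlier results of these data known. All genes of the list are named; pathway genes are named where called in a comparison, or to say that they passed no test; genes most like H2-Aa, Cd74, Ciita and H2-Eb2 are the 5 with the highest correlation. Some listed genes are not reported here.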

Additional observations from a re-analysis of the deposited data

Results flagged for a closer look

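In 5 of 48 sets of 4 library values, 1 library lay far from the other 3. The rule flags about 1 in 20 sets of independent, normally distributed values. The 48 sets share genes and libraries, so 5 of 48 cannot be set against that rate. H2-Eb2 was at 20.7 CPM in culture 2, where the other culture libraries were at 23.1 to 23.3 CPM. Ciita was at 102 CPM in hematogenous 4, where the other hematogenous libraries were at 131 to 137 CPM. The ratio of H2-Aa to H2-Ab1 was 1.51 in lymphatic 2 and 0.911 to 1.01 in the other lymphatic libraries. The ratio of H2-DM to H2-DO chains was 0.0723 in culture 1 and 0.0429 to 0.0476 in the other culture libraries. The ratio of the 3 chains to Ciita was 97.8 in lymphatic 4 and 36.6 to 38.6 in the other lymphatic libraries.

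The change over culture differed between the lymph node groups for each class II gene. As lymphatic minus hematogenous log2 values, the differences were -1.72 for H2-Aa, -1.64 for H2-Ab1, -1.79 for H2-Eb1, -1.72 for H2-Eb2, -1.94 for Cd74, -2.01 for H2-DMa, -2.58 for H2-DMb2, -1.67 for H2-Oa, -0.528 for H2-Ob and -1.85 for Ciita (edgeR, adjusted p at most 0.00966). For H2-Eb2 the changes over culture had opposite signs in these groups, and both passed the test.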

How the results depend on the processing

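Under 19 alternatives for each comparison, the calls on the class II genes other than H2-Ob did not change. H2-Ob, hematogenous over culture, ranged from 0.344 to 0.533 log2 units. Fitting hematogenous and culture libraries alone called 3150 genes higher and 3194 lower, against 1880 and 1880 in the fit of all libraries; leaving out 1 library gave 1545 to 2995 higher and 1580 to 2935 lower, both highest without lymphatic 4. Fitting the lymph node groups alone called 910 genes higher and 824 lower in lymphatic libraries, against 1542 and 1470; leaving out 1 library gave 930 to 2080 higher, lowest without hematogenous 1, and 1072 to 2253 lower, highest without lymphatic 4. Of the pathway lists, the number lower with 1 library left out was 7 to 13 for lymphatic over culture and 6 to 14 for lymphatic over hematogenous libraries, both highest without lymphatic 4; without lymphatic 4 and culture 4 together the comparison of the lymph node groups gave 13. Same-numbered libraries did not deviate together (12 correlations, -0.181 to 0.0919). With the replicate block, 8 class II genes were higher and 1 lower in lymphatic than in culture libraries, 10 were higher in hematogenous than in culture libraries and 10 lower in lymphatic than in hematogenous libraries. With H2-DMb1 in the H2-DM sum, an alternative chosen after seeing the data, the lymphatic mean of the H2-DM to H2-DO ratio was 1.01, against 0.516 without it. The causes of the other shifts were not tested. Levels under 1 CPM, such as H2-Oa in culture, rest on few counts.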
